A study of Rattus norvegicus with 10 samples.

Results

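Smooth muscle, meningeal and choroid genes are transcripts of the vessel walls, brain coverings and cerebrospinal fluid producing tissue that can come along when cortex is dissected. The 9 genes described here are Acta2, Tagln and Myh11 (smooth muscle), Dcn, Lum, Ogn, Ptgds and Aldh1a2 (meninges) and Ttr (choroid plexus). They were chosen by name, as the rows of the deposited expression table that carry these symbols, and all 9 were found among its 16041 rows. RNA had been sequenced from the prefrontal cortex of male Sprague-Dawley rats at postnatal day 91. The 5 control libraries came from rats listed as controls, and the 5 early life stress (ELS) libraries came from rats that went through limited nesting from postnatal day 2 to 9, a paradigm in which dam and pups have little nest material. Each library came from its own tissue sample; the labels name no litters, and p-values thus speak only for variation among these samples. The question followed here is how much of each transcript the 10 samples held, and whether ELS and control samples differed in it.

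The brain's arteries and arterioles are wrapped by smooth muscle cells, which contract through alpha smooth muscle actin and smooth muscle myosin. The brain surface is covered by the meninges, whose fibroblasts deposit collagen and small leucine-rich proteoglycans, make the retinoic acid enzyme Aldh1a2 and secrete prostaglandin D synthase. The choroid plexus lies in the ventricles, makes cerebrospinal fluid and is the main brain source of transthyretin. Some of these transcripts also come from within the cortex: arterioles run through it, and oligodendrocytes make Ptgds too. In bulk RNA, fewer cells of a type and less RNA per cell cannot be told apart.

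The libraries held 18838898 to 22311136 reads, with 71.1% to 73.7% of them in genes of the table. The library labelled control replicate 4 stood apart from the others: the mean chi-square per gene between replicates of 1 group was 41.3 to 43.9 for pairs with it and 2.80 to 15.3 for the other pairs. In that library the cortical excitatory neuron gene Cux2 (4.46 RPKM against 17.2 to 22.2 in the other 9) was lowest. Over the 8 genes of that list it was mixed: control replicate 4 was lowest for 4 and highest for 3, among them Neurod6 at 79.4 RPKM against 22.3 to 42.7. The hippocampal neuron genes Prox1 (13.5 against 0.839 to 1.30), C1ql2 (48.1 against 0.244 to 1.33) and Cabp7 (67.9 against 2.69 to 3.44) were highest there. These 3 genes, Cux2, Neurod6 and the list of 17 hippocampal neuron genes that holds the 3 were chosen after the values were seen. Of 10 tested genes of that list, 9 were highest in control replicate 4, and C1ql2 was too low to be tested. Among all tested genes, control replicate 4 was lowest for 23.8% and highest for 23.8%. The summed RPKM of 10 myelin genes was 2425 in it and 892 to 1521 elsewhere. The labels call all 10 samples prefrontal cortex, and the results for the 9 genes and the list counts are given with and without this library.

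Of the 9 genes, 6 had an entry in the RefSeq promoter table (build GRCr8), and Tagln, Myh11 and Dcn had none. The 250 bases before the start of Acta2, at chr1:241172504-241172753 on the minus strand, are shown because smooth muscle genes are known for CArG boxes, the elements bound by serum response factor. Capitals mark each stretch that matches the CArG box with up to 1 of its 6 inner letters other than A or T; the pattern reads the same on both strands.

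Acta2: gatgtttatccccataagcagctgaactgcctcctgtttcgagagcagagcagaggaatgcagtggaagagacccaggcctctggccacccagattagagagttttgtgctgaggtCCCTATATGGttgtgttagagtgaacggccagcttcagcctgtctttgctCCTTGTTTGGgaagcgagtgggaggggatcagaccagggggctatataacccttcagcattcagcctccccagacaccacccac

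The 2 matches begin at -134 and -84 from the gene start, and neither is a full match. Among 33469 RefSeq windows of the same length, 8.08% held at least 1 such match, 0.693% held 2 or more, and 1.50% held a full match. Acta2 was the 1 gene with a match among the 6 that had an entry. A match describes these letters and shows no binding.

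All levels are RPKM, reads scaled by the length of the gene and the total of the library, and so can be compared between genes. A log2 fold change is the mean log2(RPKM + 0.1) of ELS minus that of control, a scale on which low genes appear to change less than they do. Means carry the SD of the 5 libraries, and log2 fold changes the SE of the fit.

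Acta2 (ENSRNOG00000058039), alpha smooth muscle actin, was at 8.16, 8.32, 6.52, 5.32 and 6.21 RPKM in control replicates 1 to 5 and at 6.86, 6.03, 6.15, 8.08 and 7.47 RPKM in ELS replicates 1 to 5. Control replicate 4 was lowest and control replicate 2 highest, and every ELS library lay within the control range. The means were 6.91 ± 1.30 and 6.92 ± 0.871 RPKM (n = 5 each), a log2 fold change of 0.01 ± 0.13 (limma, adjusted p = 0.964). Without control replicate 4 it was -0.07 ± 0.12 (limma, adjusted p = 0.745).

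Tagln (ENSRNOG00000017628), which encodes the actin-binding protein transgelin, was at 9.60, 9.33, 7.48, 7.90 and 6.48 RPKM in the controls, against 7.28, 7.62, 6.11, 8.70 and 8.80 RPKM in ELS. Control replicates 1 and 2 were again highest, and 4 of 5 ELS libraries lay within the control range. The log2 fold change was -0.08 ± 0.13 (limma, adjusted p = 0.754) and -0.09 ± 0.14 without control replicate 4 (limma, adjusted p = 0.751).

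Myh11 (ENSRNOG00000057880), the heavy chain of smooth muscle myosin, was at 3.73, 4.22, 3.03, 3.21 and 3.16 RPKM in the controls, against 4.14, 3.32, 3.28, 4.11 and 3.93 RPKM in ELS. All ELS libraries lay within the control range, with control replicate 2 highest and control replicate 3 lowest. Its log2 fold change was 0.11 ± 0.11 (limma, adjusted p = 0.586), and 0.09 ± 0.12 without control replicate 4 (limma, adjusted p = 0.691). The contractile genes were thus the steadiest of the 9: the highest library was 1.56, 1.57 and 1.39 times the lowest for Acta2, Tagln and Myh11.

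**Figure D1:**
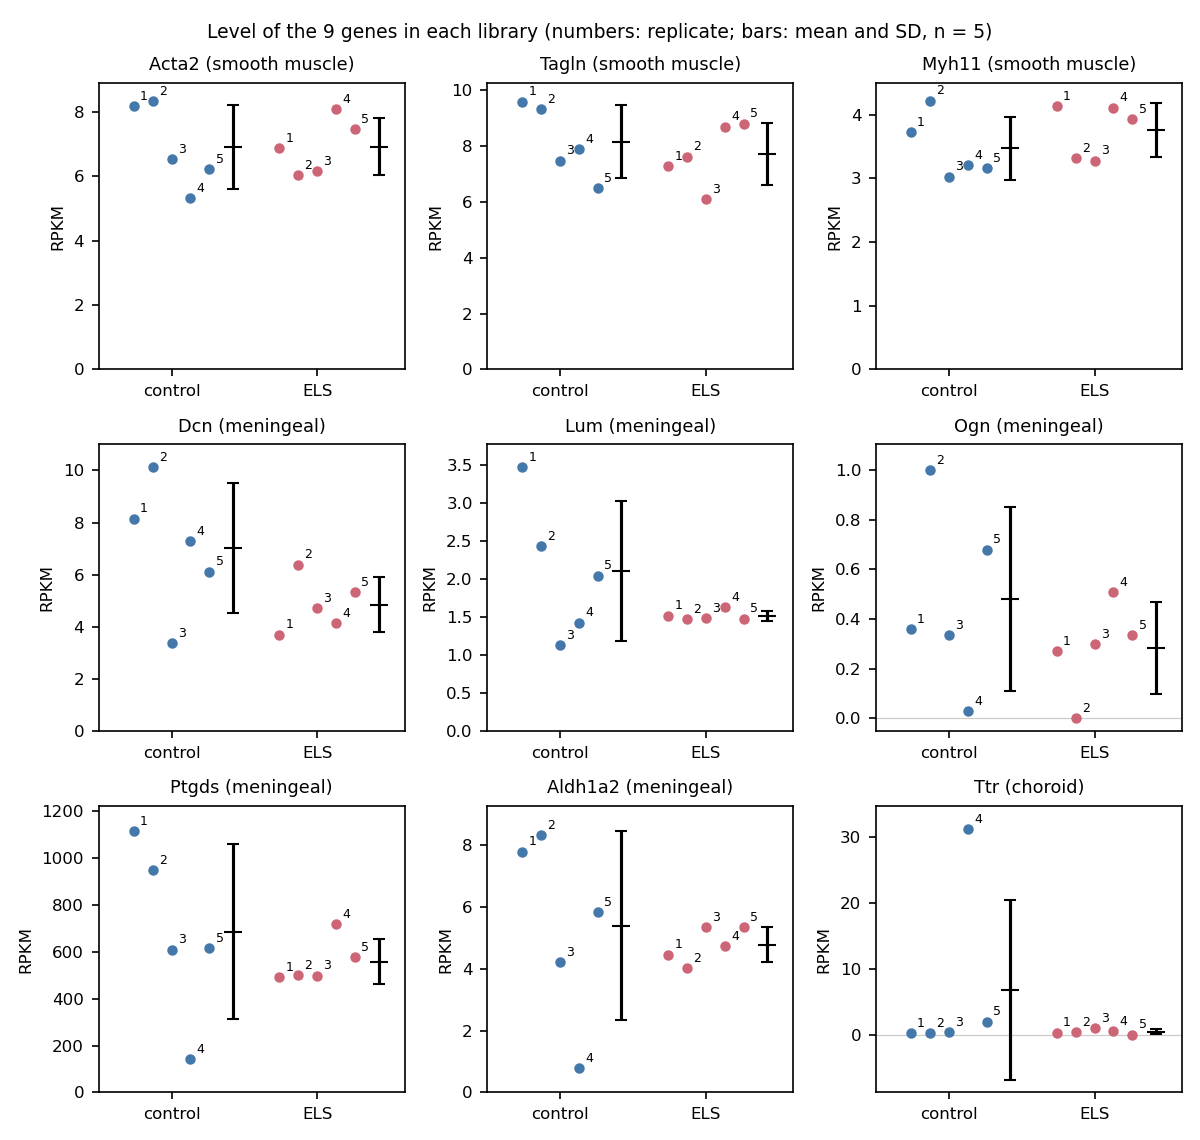
RPKM of each of the 9 genes (y axis, one linear scale per panel) in the 5 control and 5 ELS libraries, with the mean and SD of each group as line and bar, and control replicate 4 marked. That library lies far from the rest for Ptgds, Aldh1a2 and Ttr, and inside or near the other libraries for the smooth muscle genes.

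Dcn (ENSRNOG00000004554), the collagen-binding proteoglycan decorin, was at 8.15, 10.1, 3.38, 7.29 and 6.11 RPKM in the controls, against 3.70, 6.39, 4.70, 4.14 and 5.33 RPKM in ELS. All ELS libraries lay within the control range, because control replicate 3 was the lowest of all, while 3 controls lay above every ELS library. The means were 7.01 ± 2.50 and 4.85 ± 1.05 RPKM, a log2 fold change of -0.46 ± 0.26 that missed the threshold (limma, adjusted p = 0.346; exact permutation test, two-sided, p = 0.159). Without control replicate 4 the log2 fold change was -0.43 ± 0.29 (limma, adjusted p = 0.430). Dcn was not low in control replicate 4, at 1.37 times the median of the other 9.

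Lum (ENSRNOG00000004610), lumican, a proteoglycan of collagen-rich connective tissue, was at 3.47, 2.43, 1.13, 1.42 and 2.04 RPKM in the controls. In ELS it was at 1.52, 1.48, 1.48, 1.63 and 1.48 RPKM, a range narrower than that of the controls and inside it. The ELS coefficient of variation of 4.38% was below the 12.8% that counting reads alone gives on average, whereas the controls varied by far more than counting. The log2 fold change was -0.34 ± 0.25 (limma, adjusted p = 0.454) and -0.45 ± 0.25 without control replicate 4 (limma, adjusted p = 0.317).

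Ogn (ENSRNOG00000047786), osteoglycin, another member of that proteoglycan family, was too low to be tested, with 0 to 33 reads per library. It was at 0.360, 0.9999, 0.337, 0.0299 and 0.679 RPKM in the controls, against 0.273, 0, 0.299, 0.509 and 0.337 RPKM in ELS. The 0 of ELS replicate 2 allows up to 0.106 RPKM (3 reads, counting error only), and the value of control replicate 4 is a single read. The difference of mean log2 values was -0.50, and -0.96 without control replicate 4 (exact permutation tests, two-sided, p = 0.468 and 0.135).

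Ptgds (ENSRNOG00000015550), lipocalin-type prostaglandin D synthase, which makes prostaglandin D2 and is also a major secreted protein of the cerebrospinal fluid, was by far the most abundant of the 9. It was at 1115, 947, 609, 141 and 616 RPKM in the controls, against 492, 500, 498, 719 and 577 RPKM in ELS. Control replicate 4 held 0.231 times the median of the other 9, while control replicates 1 and 2 were above every ELS library. With all libraries the log2 fold change was -0.03 ± 0.47 (limma, adjusted p = 0.979). Without control replicate 4 the control mean was 822 ± 251 RPKM (n = 4) against 557 ± 96.7 in ELS (n = 5), and 4 of 5 ELS libraries lay below every remaining control. That log2 fold change of -0.52 ± 0.20 also missed the threshold (limma, adjusted p = 0.186; exact permutation test over 126 assignments, two-sided, p = 0.0556).

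Aldh1a2 (ENSRNOG00000055049), a retinaldehyde dehydrogenase that makes retinoic acid, followed the same order in part. It was at 7.78, 8.32, 4.22, 0.774 and 5.83 RPKM in the controls, against 4.45, 4.02, 5.33, 4.73 and 5.34 RPKM in ELS. The ELS libraries spanned a narrow band, above control replicate 4 and below control replicates 1, 2 and 5. Control replicate 4 held 0.145 times the median of the other 9. The log2 fold change was 0.17 ± 0.53 with it (limma, adjusted p = 0.882) and -0.41 ± 0.18 without it (limma, adjusted p = 0.236), so that 1 library set the sign. Control replicate 4 made up 72.4% of the within-group sum of squares of Aldh1a2 and 68.9% of that of Ptgds.

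Ttr (ENSRNOG00000016275), transthyretin, the carrier of thyroxine and of retinol-binding protein, showed the opposite. It was at 0.209, 0.194, 0.360, 31.1 and 1.96 RPKM in the controls, against 0.291, 0.379, 0.994, 0.543 and 0 RPKM in ELS. These values rest on 487 reads in control replicate 4, 27 in control replicate 5 and 14 or fewer in each other library; the 0 of ELS replicate 5 allows up to 0.216 RPKM. Control replicate 4 thus held 86.6 times the median of the other 9. Ttr was below the filter for the test, which asks for 0.5 RPKM in at least 5 libraries. Its difference of mean log2 values was -1.53, and -0.36 without control replicate 4 (exact permutation tests, two-sided, p = 0.365 and 0.714).

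The name choroid rests on Ttr alone. Of 12 choroid plexus markers, 7 had no row in the table, and of the other 4 genes 2 were lower in ELS, or 3 without control replicate 4. Enpp2, which makes lysophosphatidic acid and is also made by oligodendrocytes, was at 30.2 RPKM in control replicate 4 and 24.6 to 27.8 elsewhere. The water channel gene Aqp1 was at 0.201 RPKM in control replicate 4 against 0.875 to 3.37 in the others, and the potassium channel gene Kcnj13 at 0.107 against 0.317 to 1.48, both lowest where Ttr was highest. The potassium channel subunit gene Kcne2 was at 1.75 RPKM there, within the 0.915 to 1.77 of the others. Ependymal genes of the ventricle wall moved in part with Ttr: Ccdc153 was at 3.02 RPKM in control replicate 4 against 0.447 to 1.10, and Dynlrb2 at 2.86 against 0.470 to 1.26. The ependymal genes of highest mean did not: Enkur was at 5.72 RPKM there against 5.94 to 9.66, and Rarres2 at 8.53 against 6.82 to 9.43. Kcnj13, Kcne2, Ccdc153 and Dynlrb2 are named after their values were seen, and the part of choroid or ependymal tissue in the Ttr value was not tested.

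**Figure D2:**
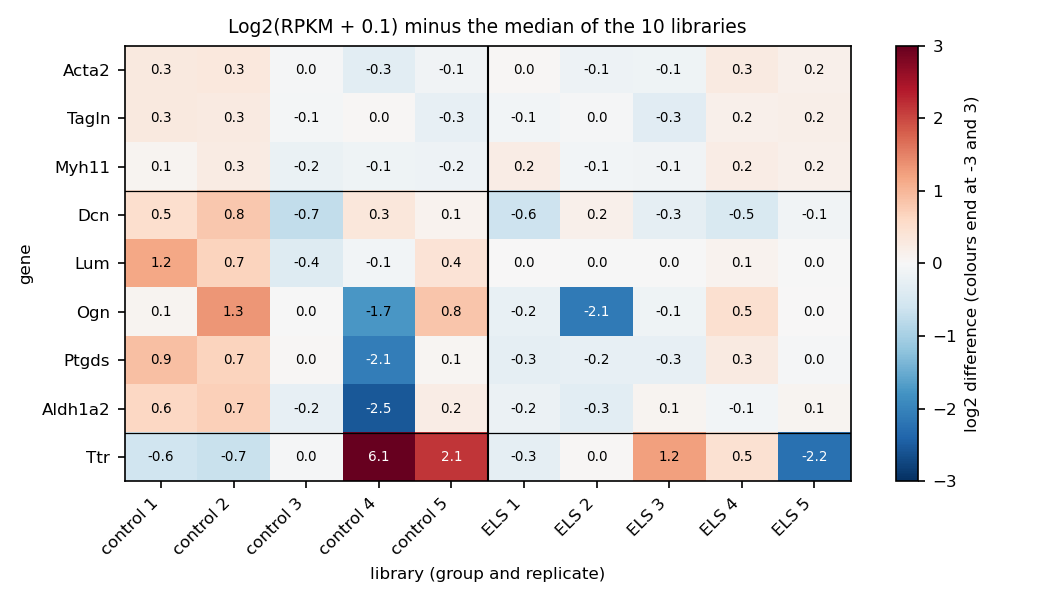
Heat map of each gene's log2(RPKM + 0.1) value minus its median over the 10 libraries, genes in rows and libraries in columns, with the difference printed in each cell. Control replicates 1 and 2 are high for most meningeal genes, and control replicate 4 is low for Ptgds and Aldh1a2 and high for Ttr.

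Ordered by median RPKM over the 10 libraries, Ptgds (593) was above Tagln (7.76), Acta2 (6.69), Dcn (5.72), Aldh1a2 (5.03), Myh11 (3.53), Lum (1.50), Ttr (0.369) and Ogn (0.337). Ptgds exceeded Tagln, and Myh11 exceeded Lum, in 10 of 10 libraries. Tagln exceeded Acta2, Aldh1a2 exceeded Myh11, and Lum exceeded Ttr in 9 of 10. The order of Acta2 over Dcn and of Ttr over Ogn held in 7 of 10 libraries, and that of Dcn over Aldh1a2 in 5 of 10, so these neighbours were not separated beyond their spread.

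In the comparison of ELS with control, 6 of the 9 genes had a lower and 3 a higher mean log2 value in ELS. Among all tested genes 49.4% were lower. The median log2 fold change of the 9 was -0.08, against 0.0037 over all genes tested. None of the 7 tested genes passed an adjusted p of 0.05 by limma, and the share called among all 14642 tested genes was also 0%. At an unadjusted p under 0.05 there were 0 of the 7, against 20.4% of all tested genes, and limma-voom on the recovered reads called 0 of the 7 as well. Without control replicate 4, 8 of the 9 genes were lower in ELS, beside 48.1% of all tested genes. The median of the 9 was then -0.41, against 0.0078 over all genes tested. Again 0 passed, beside 0% of all tested genes. There 1 gene, Ptgds, had an unadjusted p under 0.05 by limma, beside 21.7% of all tested genes. In none of the 9 genes did all 5 ELS libraries lie outside the range of the 5 controls, which happened for 5.68% of tested genes.

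**Figure D3:**
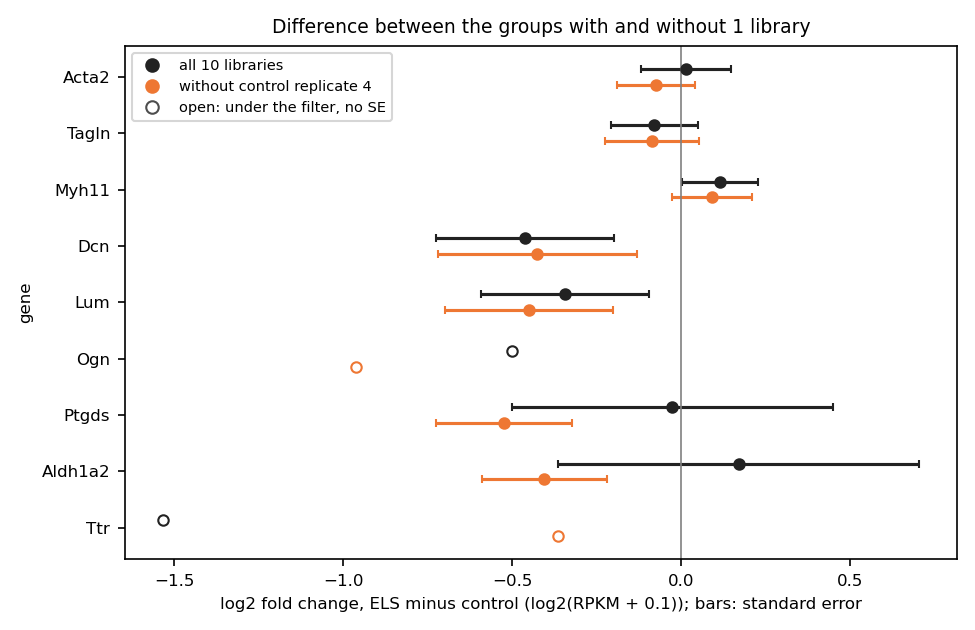
Log2 fold change of ELS against control for each gene, with all 10 libraries and without control replicate 4; bars are standard errors of the limma fit, absent for Ogn and Ttr, which were not tested. Leaving out control replicate 4 moves Ptgds from -0.03 to -0.52 and Aldh1a2 from 0.17 to -0.41, and leaves the smooth muscle genes near 0.

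With all 10 libraries, the spread was larger than that of a typical gene. The median within-group SD of the 9 genes on the log2 scale was 0.468, against 0.155 for all tested genes. Among the 7 tested genes the SD ranged from 0.18 for Myh11, at percentile 57.1 of all tested genes, through 0.43 for Lum (percentile 87.4) and 0.47 for Dcn (percentile 89.0) to 0.85 for Ptgds (percentile 96.6) and 0.96 for Aldh1a2 (percentile 97.3). The tested genes were also split by mean RPKM into 4 level classes of about equal size. Each within its own level class, Ptgds lay at percentile 99.8, Aldh1a2 at 98.5, Dcn at 90.4 and Tagln at 82.9. Acta2, Lum and Myh11 lay lower, at percentiles 69.0, 67.6 and 54.7. All these percentiles include control replicate 4, which made up much of the within-group sum of squares of Ptgds (68.9%) and Aldh1a2 (72.4%). Without that library the median within-group SD of the 9 genes was 0.339, and no percentiles without it are given. Counting error does not reach the observed spread for the more abundant genes: the control coefficient of variation of Acta2 was 18.8% where counting reads gives 7.06%.

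The spread was placed unevenly over the libraries. Control replicate 1 or 2 was the highest library for 8 of the 9 genes, the exception being Ttr. Among the 7 tested genes this held for 7, where it held for 17.3% of all tested genes. Control replicates 1 and 2 were put together after the values were seen, so that share is no test of the 9 genes. Control replicate 4 was lowest for 3 genes, Acta2, Ptgds and Aldh1a2, where it was lowest for 23.8% of tested genes. It was highest for 0 of the 7 tested genes, where it was highest for 23.8% of all, and for the untested Ttr. Control replicate 4 lay under 0.5 times the median of the others for 2 of the 7 (Ptgds and Aldh1a2), against 5.4% of tested genes, and over 2 times it for 0 of the 7, against 3.35%. The untested Ogn and Ttr lay beyond these bounds, on the low and the high side.

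The controls varied more than the ELS libraries. The SD of log2 values was larger in controls for 9 of the 9 genes and for 7 of the 7 tested, as it was for 65.0% of all tested genes. Without control replicate 4 it was larger in controls for 8 of the 9 and again for 7 of the 7 tested, against 50.2% of all. For Ptgds the SD was 1.18 in the controls, 0.44 without control replicate 4 and 0.23 in ELS, and for Aldh1a2 it was 1.34, 0.44 and 0.17. The difference in spread was not tested.

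**Figure D4:**
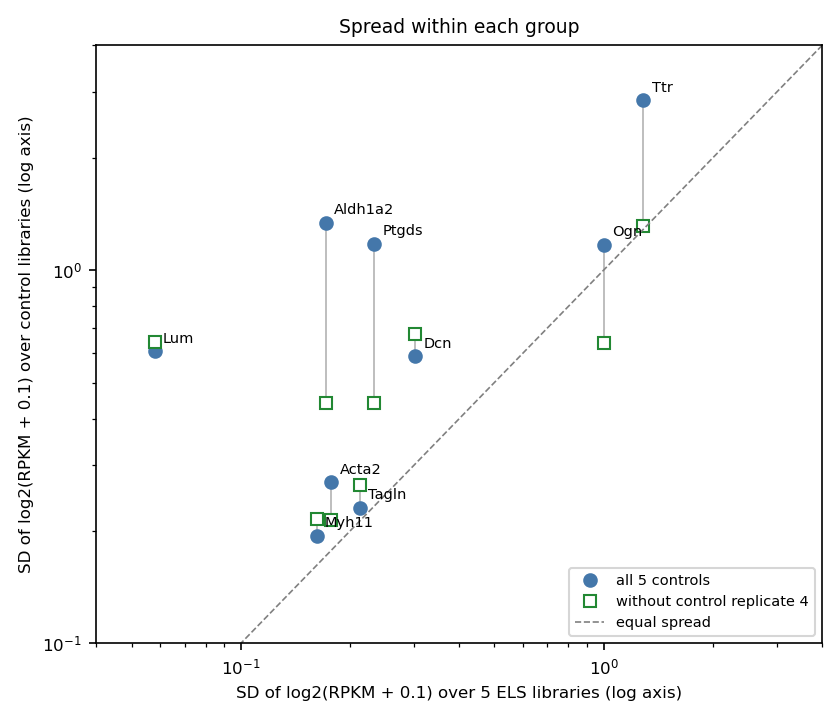
SD of log2(RPKM + 0.1) over libraries for each gene in controls, in controls without replicate 4 and in ELS. The ELS values are below the control values for all 9 genes, and below those of the 4 remaining controls for 8 of them.

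Genes outside the 9 that mark the same tissues were described in the same way, with counts over lists. Beside all counts of genes lower in ELS that follow, the share of all tested genes was 49.4%, and 48.1% without control replicate 4. Of 15 tested meningeal fibroblast genes outside the 9, 11 were lower and 4 higher in ELS (median log2 fold change -0.13). Without control replicate 4, 15 of 15 were lower with a median of -0.43, and 0 passed the threshold in either fit. Over all 19 tested genes of the list, which include 4 of the 9 genes, 14 were lower (median -0.13). Without control replicate 1, 10 of those 19 were lower (median -0.03). Control replicate 4 was the lowest library for 12 of the 15 genes outside the 9, beside 23.8% of all tested genes. It held a median of 0.529 times the other libraries' median. Control replicate 1 or 2, put together after the values were seen, was highest for 14 of the 15, beside 17.3% of all tested genes. Mgp, an inhibitor of calcification, averaged 12.2 ± 2.89 RPKM over controls against 10.7 ± 1.56 over ELS libraries (log2 fold change -0.17 ± 0.17; limma, adjusted p = 0.608, and 0.165 without control replicate 4). Igf2, a growth factor, was at 10.1 ± 4.92 and 8.38 ± 1.89 RPKM, with 2.77 in control replicate 4 against 6.29 to 16.1 elsewhere. The summed RPKM of the 16 measured genes was 115, 108, 78.8, 41.4 and 84.9 in control replicates 1 to 5 and 63.6 to 82.3 in ELS. That sum has the order of Ptgds in the controls: replicates 1 and 2 high, replicate 4 low.

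Of 9 tested smooth muscle genes outside the 9, 4 were lower and 5 higher in ELS (median log2 fold change 0.05), and without control replicate 4, 5 were lower (median -0.06). Their log2 fold changes ran from -0.48 for Rasl12 to 0.23 for Pln, and the summed RPKM of the 10 measured ran from 23.1 in control replicate 4 to 35.3 in control replicate 2. Myl9, a myosin light chain, averaged 10.5 ± 1.98 RPKM over controls against 9.31 ± 0.677 over ELS libraries, and the tropomyosin gene Tpm2 averaged 5.40 ± 1.03 and 5.52 ± 0.479 RPKM. Pericyte genes were lower in ELS in 9 of 10 cases (median -0.09, and -0.12 without control replicate 4) and endothelial genes in 10 of 11 (median -0.05, and -0.12 without it). Without control replicate 1 the pericyte count was 7 of 10, and without ELS replicate 4 the endothelial count was 6 of 11. The pericyte gene of highest mean, Rgs5, was at 43.5 ± 3.19 and 42.7 ± 2.97 RPKM, followed by Vtn at 12.1 ± 2.55 and 11.9 ± 1.47. Of the endothelial genes, Itm2a was at 33.1 ± 3.44 and 31.9 ± 3.04 RPKM, and the glucose transporter gene Slc2a1 at 30.9 ± 1.65 and 33.3 ± 5.47. None of these lists held a gene past the threshold, with or without control replicate 4.

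**Figure D5:**
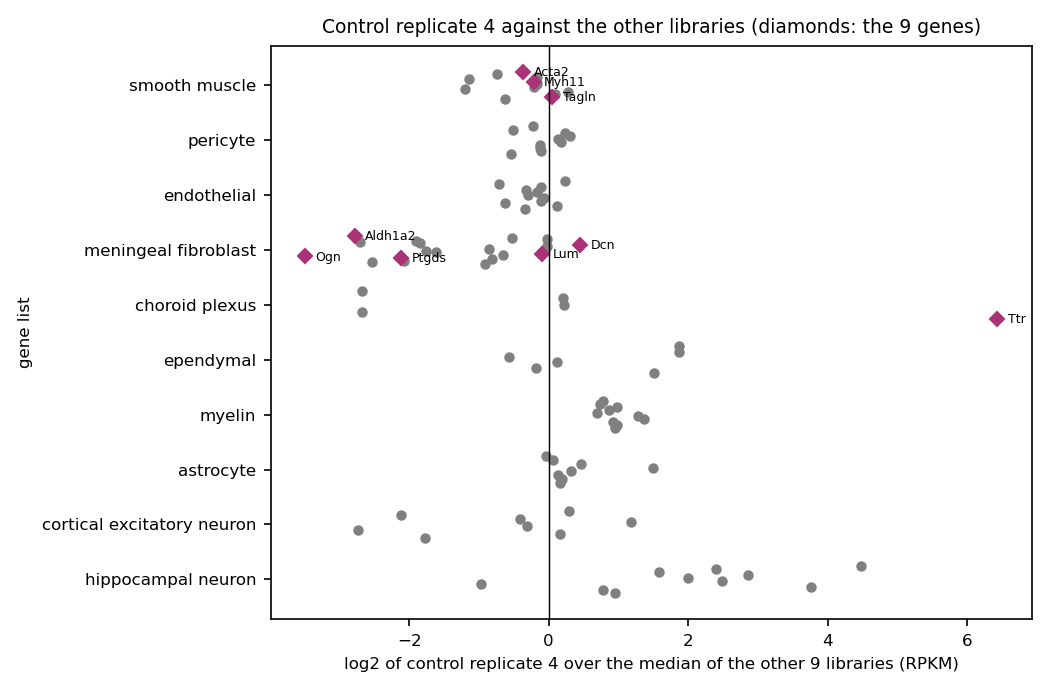
Log2 of the ratio of RPKM in control replicate 4 to the median of the other 9 libraries (x axis, 0 where they are equal), by cell type list (y axis); points are tested genes and diamonds the 9 genes. Myelin genes lie above 0 and most meningeal genes below it, with Dcn on the high side at a ratio of 1.37 and Ttr at 86.6.

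The pathways in which the 9 genes act showed no gene past the threshold. Of 6 other tested small leucine-rich proteoglycan genes, 3 were lower in ELS, and 5 without control replicate 4. Podn averaged 29.8 ± 2.06 RPKM over controls against 31.8 ± 2.07 over ELS libraries, and biglycan (Bgn) averaged 10.2 ± 2.74 and 8.53 ± 1.23. Of 4 other prostaglandin D2 genes, 2 were lower and 2 higher in ELS, with and without control replicate 4. The higher ones were the cyclooxygenase genes Ptgs2 and Ptgs1, which averaged 8.28 ± 2.23 and 2.03 ± 0.194 RPKM over controls, against 8.96 ± 1.24 and 2.13 ± 0.274 over ELS libraries. The summed RPKM of the 4 genes was 13.1 in control replicate 4, inside the 9.85 to 14.5 of the other libraries, where Ptgds was lowest.

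Retinoic acid genes other than Aldh1a2 were lower in ELS in 12 of 15 cases (median log2 fold change -0.09), and in 13 of 15 without control replicate 4 (median -0.04). Over all 16 tested genes of the list, Aldh1a2 among them, 12 were lower, and 9 without control replicate 5. The receptor gene Rxrb was at 16.8 ± 0.534 and 16.4 ± 0.444 RPKM, and the retinal reductase gene Dhrs3 at 6.84 ± 0.701 and 7.78 ± 0.984. Genes of thyroid hormone and retinol carriage, the pathway of Ttr, were lower in 3 of 7 cases with and without control replicate 4, among them the receptor gene Thra at 101 ± 8.01 and 96.2 ± 1.58 RPKM. The thyroid hormone-binding protein gene Crym was at 98.2 ± 16.5 and 103 ± 4.43 RPKM. Rbp4, whose protein rides on transthyretin, was at 8.05 RPKM in control replicate 4 against 12.0 to 18.8 in the others, lowest where Ttr was highest; it was picked after its values were seen. Regulators of smooth muscle transcription were lower in 3 of 5 cases, and in 2 of 5 without control replicate 4, with Srf, the factor that binds CArG boxes, at 11.7 ± 0.972 and 11.4 ± 0.789 RPKM. Mef2c, which cortical neurons also express, was at 14.2 RPKM in control replicate 4 and 83.1 to 101 in the others.

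Lists of the remaining cell types also had medians away from 0, and their part in the values above was not tested. Myelin genes were lower in ELS in 10 of 10 cases (median log2 fold change -0.49, and -0.35 without control replicate 4), with Mbp at 657 ± 236 and 388 ± 46.2 RPKM. Astrocyte genes were lower in 8 of 8 (median -0.20, and -0.22 without it) and blood genes in 5 of 5 (median -1.08, and -1.07 without it). Cortical excitatory neuron genes were higher in 8 of 8 (median 0.37, and 0.27 without it). Of 6 ependymal genes 4 were lower, with a median of -0.23 that became -0.06 without control replicate 4. Of the 10 tested hippocampal neuron genes 8 were lower (median -0.43), and 5 without control replicate 4 (median -0.03). None of these genes passed the threshold.

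How the genes moved together was computed over the 9 libraries other than control replicate 4, which stood apart. The log2 values were not centred on the group means, and the permutations ignored group. A difference between ELS and control that 2 genes share therefore adds to their r. None of 36 pairs passed Benjamini-Hochberg adjustment of permutation p-values, the lowest adjusted p for Pearson's r being 0.0504. Acta2 and Tagln had r = 0.888 and rho = 0.783 (permutation p = 0.00315 and 0.0169, adjusted 0.0504 and 0.152). Without the 2 libraries farthest from the median of Acta2, r was 0.798. In each pair these 2 libraries were chosen by the gene named first alone, so extremes of the other gene could remain. Dcn and Lum had r = 0.797 and rho = 0.583 (permutation p = 0.00840 and 0.110, adjusted 0.0504 and 0.233), with 0.720 without 2 libraries. Ptgds and Aldh1a2 had r = 0.823 and rho = 0.650 (permutation p = 0.0111 and 0.0673, adjusted 0.0570 and 0.152). This last r fell to 0.205 without 2 libraries, so it rests on them. Further pairs also had an adjusted permutation p of 0.0504 for Pearson's r. They were Lum with Aldh1a2 (r = 0.872), Lum with Ptgds (r = 0.837) and Dcn with Aldh1a2 (r = 0.813). So did Acta2 with Ptgds (r = 0.804), a smooth muscle and a meningeal gene. Without 2 libraries these r were 0.653, 0.179, 0.625 and 0.634.

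For likeness over all genes, deviations from the group means were correlated over the 10 libraries among 13221 genes with a mean of at least 1 RPKM, as a description of shared libraries. The r printed are the highest among many genes over few libraries. Such a choice gives high values by itself, and none was tested. The gene most like Acta2 was Fbln5, an elastic fibre protein gene (r = 0.954, and 0.957 without control replicate 4), followed by Araf and Mrc1. Most like Lum was Colec12, a scavenger receptor gene (0.952 and 0.960). Most like Ptgds were Igfbp2, which binds insulin-like growth factors (0.988 and 0.918), and Fmod, the proteoglycan fibromodulin (0.980 and 0.872), which was at 0.859 RPKM in control replicate 4 against 2.56 to 5.12 in the others. Most like Aldh1a2 were Nap1l1 (0.992 and 0.929), E2f1 and Ptprm. Tagln was most like SNORD12 (0.945 and 0.964), Myh11 most like Surf4 (0.923 and 0.961) and Dcn most like Trpt1 (0.963 and 0.972). The low genes Ogn and Ttr were most like Hmgxb3 (0.982 and 0.967) and Fam107b (0.951 and 0.871).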

How the data were processed

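RNA from 10 prefrontal cortex samples was made into libraries with a stranded, poly(A)-selecting kit after DNase digestion, per the labels' protocols. STAR, featureCounts and rat build rn6 are listed in the submitters' processing notes; versions and strand setting: not given in the sources used here. Reads of overlapping or antisense genes may therefore be shared. The authors deposited 1 table for 16041 Ensembl genes with values of RPKM type (FPKM cannot be told from it, and RPKM is used as the name). From the steps between values, whole reads were recovered for 16015 genes, 100% of those above 0, with a tolerance of 0.002 reads; lengths and totals came with them, and 26 genes were at 0 throughout. Each column matched 1 sample title, and 0 columns were unused. Depth limits the low genes, and floors of 3 reads cover counting error only.

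Values were analysed as log2(RPKM + 0.1). A gene was tested where 5 or more libraries reached 0.5 RPKM, which kept 14642 and removed 1399. The test was limma 3.58.1 (R 4.3.3), two-sided, trended and robust, with p-values adjusted by Benjamini-Hochberg over all tested genes and a threshold of 0.05. The procedure was tested on simulated data. Exact permutation tests ran over 252 assignments of libraries (smallest possible p 0.00794), and pair correlations used 100000 permutations. Promoters came from RefSeq for build GRCr8, which is not the build of the files, so no other coordinates are given.

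The 9 genes and 15 gene lists (170 distinct genes) were chosen with earlier results of these data known. The named-gene rule was all 9 genes, the 2 other genes of highest mean in each list, genes past the threshold, and the 3 genes most like each of the 9; those that bear on the 9 genes are printed, and exceptions are said in the text. Some genes that met the rule are not reported here. A list of 17 hippocampal neuron genes was added after the data were seen. Alternatives were the pseudocount, the filter, the scaling, limma-voom with and without quality weights, a replicate block and each library left out. The chi-square comparison of replicates found no pair within sampling noise, so all 10 libraries were counted.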

Additional observations from a re-analysis of the deposited data

Results flagged for a closer look

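In groups of 5 libraries, a value was listed when its gap to the nearest other value, divided by the range of the group, exceeded 0.71. Chance gives about 1 in 20 such groups if they are independent, and 9 of 66 met it here. They were not independent: every flag but that of Lum fell on control replicate 4. Ttr also enters the flagged sums of choroid plexus genes and of thyroid hormone and retinol carriage. The hippocampal list, 1 of the 9, was added because control replicate 4 had been seen to stand apart. The count thus cannot be read against that rate. Lum stood out in ELS replicate 4, at 1.631 RPKM, in a group whose other values lay within a very narrow band. Ttr stood out in control replicate 4, at 31.14 RPKM. Among summed RPKM of the marker lists, control replicate 4 stood out from the other controls 7 times. It was high for choroid plexus genes (63.41, of which Ttr made up the excess), myelin genes (2425), astrocyte genes (941.5), genes of thyroid hormone and retinol carriage (327.6) and hippocampal neuron genes (372.9). It was low for endothelial genes (121.4) and for regulators of smooth muscle transcription (60.19). Mef2c made up the shortfall of the regulators, at 14.2 RPKM in control replicate 4 against 83.1 to 101 in the others. Of the 5 tested regulators, control replicate 4 was highest for 3 and lowest for 1.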

How the results depend on the processing

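Of the 9 genes, none passed the threshold under any alternative run; 7 genes were tested in each, and Ogn and Ttr without the filter alone. A pseudocount of 1 lowered their median within-group SD to 0.299. With sample quality weights the log2 fold change of Acta2 became -0.062, that of Aldh1a2 -0.34, that of Ptgds -0.51 and that of Lum -0.58. Leaving out 1 library at a time moved Acta2 between -0.074 and 0.085, Ptgds between -0.52 and 0.22, and Aldh1a2 between -0.41 and 0.41; the other 6 genes kept their sign. Of these, Dcn ran from -0.70 (without control replicate 3) to -0.31 (without control replicate 2), Lum from -0.53 (without control replicate 3) to -0.14 (without control replicate 1), and Tagln from -0.16 (without control replicate 5) to -0.00028 (without ELS replicate 3). Myh11 ran from 0.07 (without control replicate 3) to 0.19 (without control replicate 2). The untested Ogn ran from -0.96 (without control replicate 4) to -0.07 (without ELS replicate 2), and Ttr from -2.05 (without control replicate 2) to -0.36 (without control replicate 4). The count lower in ELS ran from 5 to 8, and the median log2 fold change from -0.41 (without control replicate 4) to -0.00028. Without both control replicate 4 and ELS replicate 2, a pair added after the data were seen, Acta2 was at -0.03, Aldh1a2 at -0.35 and the median at -0.41. Over all genes tested, calls rose from 0 to 1051 with quality weights, 444 without ELS replicate 2, 1 without ELS replicate 5 and 1116 without control replicate 4 and ELS replicate 2 together; the cause was not tested. Limma-voom gave no value for the low genes Ogn and Ttr, hence no median over the 9. List values moved beyond their spread in 39 of 448 cases, 16 of them without control replicate 4. Replicate numbers did not pair the samples: correlations of deviations were -0.0817 to 0.0658, and 1 of 5 controls matched best its own number. With the replicate block 0 of the 7 tested genes passed (limma, lowest adjusted p 0.336, for Dcn). Depth limits Ogn and Ttr most.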
